A study of Oryctolagus cuniculus with 54 samples.

Results

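The genes described here formed a late-gestation window in the rabbit lung: their transcripts were high in the fetus on day 28 of gestation and lower both in younger fetuses and in older, air-breathing pups. They were chosen by measured values. In the third of 3 sequencing runs, the mean of log2(CPM + 1) was taken per group, where CPM is the count of a gene in every 1000000 counts of the library. Of 29587 identifiers, 1414 had an F28 level of at least 2.6 that was also more than 0.5 above T42. These were ranked by the F28 level minus the highest of the F20, F23, T37 and T42 levels, and the first 150 were kept. The values of those groups in run 3 therefore describe the selection, and no difference between those groups was tested.

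The lungs of New Zealand White rabbits were profiled by 3′ RNA-seq (QuantSeq), which counts 1 fragment near the end of each transcript and so does not scale with transcript length. The 54 libraries came from 45 animals in 13 groups, and the study took each pup from a different dam. Right lung homogenate is the labelled material, while the methods describe whole lungs for the smallest fetuses, F20 and F23. Groups F20, F23, F25, F27, F28 and F29 were fetuses delivered by Caesarean section on the gestational day in their name and sampled at once. Group T31 was born naturally on day 31 and sampled at birth, and T35, T37 and T42 were mother-reared in room air for 4, 6 and 11 days. Groups P0, P3 and P7 were delivered by Caesarean section on day 28, kept in incubators at 21% oxygen on milk replacer, and sampled 1 h, 3 days and 7 days later. P3 and P7 have the same age from conception as T31 and T35. Preterm and term pups also differed in mode of delivery, rearing and feeding, which cannot be told apart from early birth in these groups.

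In late gestation the rabbit lung passes from the canalicular to the saccular phase, in which the future air spaces widen, their walls thin and type II epithelial cells build up surfactant. At birth the liquid that filled the air spaces is cleared and gas exchange begins, and alveoli form by septation afterwards. The deposited table lists Ensembl identifiers with no gene names, and 0 of them could be matched to a symbol, so the lung cell markers and pathway lists drawn up for this work could not be applied and no function is given for any gene. Genes are called here by their rank, and 4 identifiers are printed, chosen after their values were seen. In homogenised tissue, fewer cells of a type and less RNA per cell cannot be told apart.

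Totals per library were 5771693 to 8073755 counts, so that 1 CPM stands for 5.8 to 8.1 counts. Run 1 held F25, F27, F28, F29, T31 and T35 with 3 animals each. Run 2 held 2 F28, 2 T35, 3 P0, 3 P3 and 2 P7 animals, and run 3 held 4 F20, 4 F23, 1 F25, 2 F28, 3 T31, 2 T35, 4 T37, 3 T42 and 1 P7 animal. Of the animals, 6 were sequenced in more than 1 run, and since levels shifted between runs, groups were compared within a run wherever both were in it.

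The excess on which the genes were ranked ran from 3.05 for rank 1 to 0.719 for rank 150 on the log2 scale, and the first gene left out had 0.716. The last 5 genes kept had excesses of 0.728 to 0.719, and the next 5 outside had 0.716 to 0.708, so the border is not a natural gap. At F28 in run 3 the genes had a median of 47.3 CPM. The lowest stood at 5.19 CPM and the highest at 7516 CPM, with 60 below 30 CPM and 6 above 1000 CPM. The choice rested on 2 F28 animals: with animal 2 alone the rule would have kept 108 of the 150, and with animal 7 alone 100.

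The mean level of the 150 genes followed the same course in run 1, where libraries of the groups other than F28 did not enter the choice. The rule set F28 above F20, F23, T37 and T42. A rise before day 28 and a fall after birth are therefore partly built in, also where shares over all genes are given beside them. The rule did not fix when between those ages the levels changed. The 3 F25 libraries had mean levels of 4.81, 4.43 and 4.66 on the log2(CPM + 1) scale, and the 3 F27 libraries 4.82, 4.85 and 5.33. Levels were highest in late gestation, with 5.35, 5.24 and 5.02 in the F29 libraries. At natural birth the T31 libraries had 4.86, 4.74 and 5.24, which overlapped with F29. After 4 days in air the T35 libraries had 4.36, 4.51 and 4.69, all below every F29 and every T31 library. F28 animals 2 and 7, which entered the choice, had 5.47 and 5.55 in this run, and animal 9, which did not, had 5.15. In animal 9, 87 of the 150 genes lay above all 3 T35 libraries, beside 37.6% of all genes tested, against 104 (42.3%) and 114 (42.5%) in animals 2 and 7, with the shares over all genes in parentheses. Libraries of the same T35 animals 6 and 11 moved from 4.51 and 4.69 in run 1 to 4.80 and 4.90 in run 3.

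**Figure D1:**
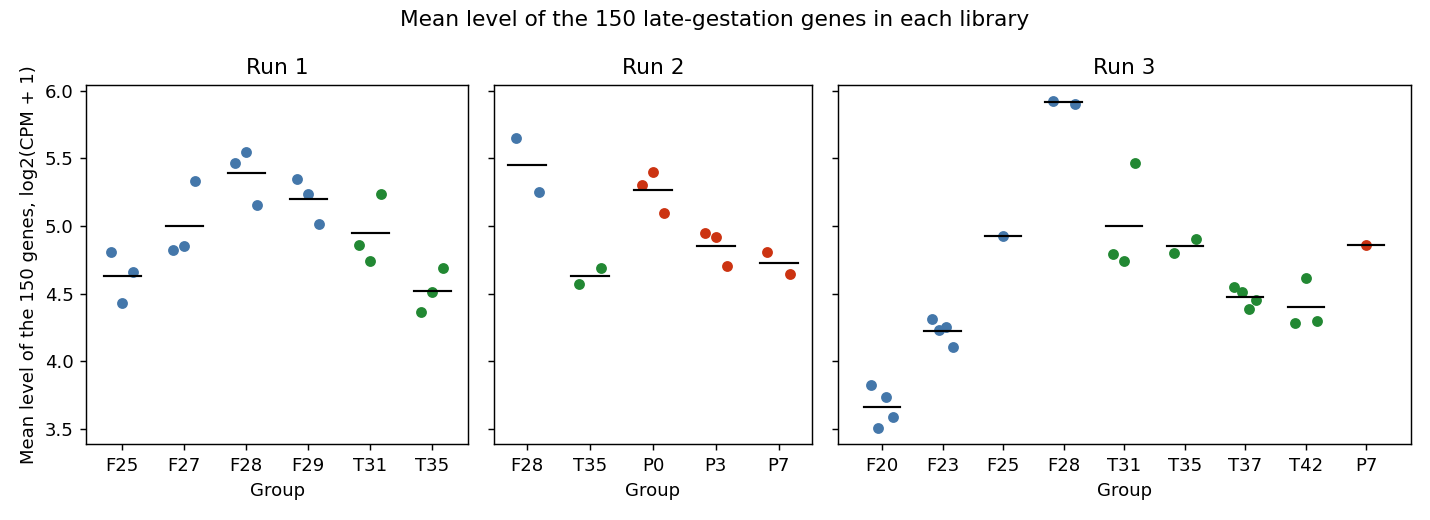
Mean log2(CPM + 1) of the 150 genes (vertical axis) in each library by group and sequencing run; points are libraries (blue fetal, green term-born, red preterm) and bars are group means. In run 1 the T35 libraries lie between 4.36 and 4.69, below the F29 libraries at 5.02 to 5.35, and in run 2 the P3 libraries at 4.70 to 4.95 lie below the P0 libraries at 5.10 to 5.40.

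Among the 5 groups of run 1 other than F28, the highest mean was at F29 for 67 genes (44.7%, against 13% of the 14600 genes tested), at F27 for 33 (22% against 13.6%), at T31 for 19 (12.7% against 17.5%), at T35 for 18 (12% against 17.5%) and at F25 for 13 (8.7% against 38.4%). The lowest mean was at F25 for 62 genes (41.3%, against 20.8% of all genes tested) and at T35 for 63 (42.0%, against 34.7% of all genes tested).

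The rise towards the window and the possible start of the fall before birth were read from F25, F27 and F29. Calls required a change of more than 2-fold in either direction and an adjusted p no higher than 0.05 in edgeR's quasi-likelihood test, with the adjustment over all genes tested in the run. From F25 to F27 the median change of the 150 genes was 0.45 on the log2 scale, against -0.01 over all genes, and 20 had a change below 0. None was called higher (0 of 150, where 0.0274% of all genes were), although 49 had an unadjusted p under 0.05, all of them higher (5.84% of all genes were), and DESeq2 called 6 (background 0.466%). From F27 to F29 the median change was 0.16, with 0 called lower (background 0.137%) and 1 called higher (background 0.452%), the gene of rank 39 at 1.41 ± 0.30 (SE). At an unadjusted p under 0.05, 5 genes were lower between those days (7.03% of all genes were), and DESeq2 (background 0.822%) and limma-voom (background 0.089%) called 0 lower. No net fall from F27 to F29 was thus detectable gene by gene with 3 animals a group. This comparison passes over F28, so it cannot show a fall after F28 that was offset by a rise before it. In run 1 the mean level was 5.39 at F28 (5.15 to 5.55) and 5.20 at F29 (5.02 to 5.35), with overlapping libraries. The step from F28 to F29 was not tested, and F28 animals entered the choice of the genes.

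Between F29 and natural birth no change of a single gene passed the test. From F29 to T31 the median change was -0.17, against 0.01 over all genes, and 105 of the 150 values lay below 0. With edgeR 0 genes were called lower (background 0.00685%), 15 were lower at an unadjusted p under 0.05 (6.05% of all genes were), and DESeq2 called 1 (background 0.384%). This count depended on a single newborn: T31 animal 15 had the highest mean of the 3 (5.24), and without it 7 genes were called lower, while the share over all genes rose to 1.01% and the median change was -0.37. The median was -0.11 both without T31 animal 10 and without F29 animal 7. The T31 animals of run 3 were spread as widely, at 4.79, 4.74 and 5.47.

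The fall was called over the first 4 days after term birth. Since the rule set F28 above T37 and T42, more calls than over all genes are partly built in, and the shares are a description. From T31 to T35 in run 1, 12 genes were called lower (8.0% of the 150, where 0.37% of all genes were) and 0 higher, with a median change of -0.33. The count was 3 without T31 animal 1 and 3 without T35 animal 6, where 0.0757% of all genes were called in either case. The median was -0.08 without T31 animal 15 and -0.22 without T35 animal 1. From F29 to T35, which spans birth and the first 4 days, 26 genes were called lower (17.3%, background 1.26%) and 0 higher, with a median of -0.49 against 0.02 over all genes. Without F29 animal 2 this count was 17 (background 0.736%). The 26 included all 12 of the first comparison. For 24 of the 26 the change after birth was larger than that before it: their median was -0.38 from F29 to T31 and -1.11 from T31 to T35, over 2 and 4 days. Both changes share the T31 libraries, so a high newborn value makes the first less negative and the second more negative. The 26 were picked by the whole change, and no such split is given for the other genes, so it is a description. A change below -1 by birth was seen in 3 of the 26, with values of -1.25, -1.23 and -1.67 that did not pass the test for that interval. None of the others was called lower by day 35 in run 1.

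Run 3 held other newborns and 2 of the same T35 animals, and gave a more mixed picture. The mean levels of its T35 libraries, 4.80 and 4.90, lay within the range of its T31 libraries. There 14 genes were called lower from T31 to T35 (background 1.94%) and 10 higher (background 3.51%), with a median change of -0.17. This direction rested on T31 animal 18, without which the median was 0.28 and 11 genes were called lower (background 2.71%). In both runs 9 genes were called lower, which is 75.0% of the 12 in run 1 and 64.3% of the 14 in run 3. Both counts rest in part on the same T35 animals, and the overlap over all genes was not computed. The shared calls are therefore given as a description. The 10 called higher had changes of -0.44 to 0.39 in run 1. Without T35 animal 6, which leaves 1 T35 library that is taken to vary like the other groups, 3 genes were called lower in run 3 (background 0.866%).

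**Figure D2:**
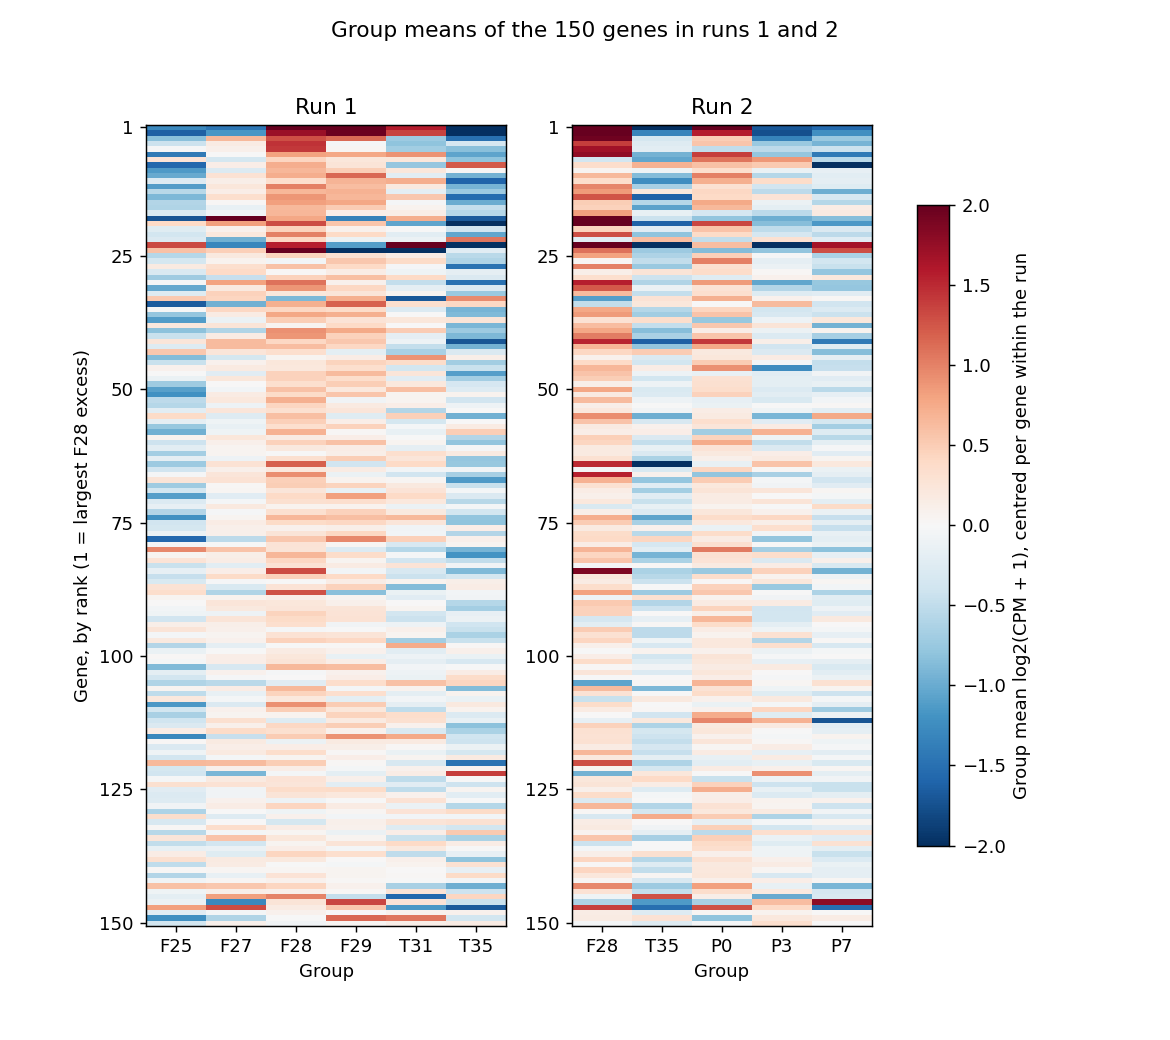
Group means of log2(CPM + 1) of the 150 genes in runs 1 and 2, centred per gene over the groups of that run; rows are genes by rank and colours are limited to -2 and 2. F28 and F29 are mostly above each gene's mean and T35 below it in run 1, and in run 2 most genes step down between P0 and P3, most strongly near the top ranks.

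The rank rests on levels at T37 and T42 as well as F28, so a larger fall after term birth at high ranks is built into it and is no result. As a description, of the 26 genes called lower from F29 to T35, 21 were among ranks 1 to 75 and 5 among ranks 76 to 150. The median change was -0.85 in the upper 75 ranks and -0.26 in the lower. In preterm pups the medians from P0 to P3 were -0.55 and -0.26, with 12 and 4 genes called lower.

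Among the genes called lower from F29 to T35 the first 2 had the largest falls, though larger changes that did not pass were fitted for genes that differed widely between animals, such as rank 23 (-7.21). ENSOCUG00000013068 (rank 1) had 32.4, 38.4 and 29.99 CPM in the F25 libraries of run 1 and 837, 462 and 452 CPM at F29. At T31 it had 824, 38.1 and 491 CPM, and at T35 7.72, 0.14 and 20.5 CPM, so that 1 of the 3 newborns was far below the others while every T35 library was below every T31 library. From T31 to T35 it fell by 5.50 ± 1.23 (log2, SE; edgeR adjusted p = 0.0273) and from F29 to T31 the difference was -0.34, not called. In T35 animal 6 the gene had 1, 1 and 0 counts in the 3 runs, against 57 counts in animal 1 and 83 to 148 in animal 11. In run 3 the T31 libraries had 465, 82.7 and 135 CPM and the T35 libraries 0 and 17.7 CPM, a fall of 4.62 ± 1.06 (edgeR adjusted p = 0.00649). The call in run 1 was lost without T31 animal 1, T35 animal 1 or T35 animal 6 (edgeR adjusted p = 0.0869, 0.0776 and 0.11) and with limma-voom (0.14), and that in run 3 without T35 animal 6 (0.0544).

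ENSOCUG00000028083 (rank 2) was less abundant but had the same shape. It had 36.1, 13.5 and 25.4 CPM in the F29 libraries and 31.1, 3.34 and 27.6 CPM at T31. The T35 libraries had 0.54, 0 and 0.41 CPM, which are 4, 0 and 3 counts, so its fold change after birth is imprecise. From T31 to T35 it fell by 5.86 ± 1.18 (edgeR adjusted p = 0.0171). That call was lost without T31 animal 1 or T35 animal 6 (edgeR adjusted p = 0.0647 and 0.0828) and with limma-voom (0.181). T31 animal 10 was the low newborn for both genes.

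Ranks 11 and 14 also fell after term birth, and their changes from F29 to T31 were 0.13 and 0.33. Rank 11 had 25.9, 27.2 and 22.6 CPM at F29, 38.1, 21.1 and 22.3 CPM at T31 and 5.42, 3.19 and 4.98 CPM at T35. Its change of -2.51 from T31 to T35 in run 1 was -2.52 in run 3, and every T35 library was below every T31 library in both. Rank 14 changed by -2.76 and -2.60 in the 2 runs, with newborns as far apart as 47.8 and 6.75 CPM in run 1. In run 3 the newborns had 47.5, 5.77 and 4.71 CPM and the T35 libraries 2.94 and 3.07 CPM.

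Preterm delivery on day 28 was followed by lower levels of the genes within 3 days. The mean level was 5.30, 5.40 and 5.10 in the P0 libraries of run 2, 4.95, 4.92 and 4.70 in the P3 libraries and 4.81 and 4.64 in the P7 libraries. The F28 fetuses 2 and 9 of the same run had 5.65 and 5.25. Every P3 library thus lay below every P0 library. From P0 to P3, 16 of the genes tested (all but rank 18) were called lower (10.7%, background 0.689%) and 1 higher (background 1.83%). Their median change was -0.37 against 0.00 over all genes, and 118 values lay below 0. From P0 to P7, 21 were called lower (14.1%, background 1.17%) and 1 higher (background 3.09%), with a median of -0.55 and 132 values below 0. Without P7 animal 4, which leaves 1 P7 library in the run, 9 genes were called lower (background 0.673%). Against the medians of -0.37 at P3 and -0.55 at P7 for the genes tested, the 21 genes had -1.13 and -1.57. All 21 were below 0 at P3 as well. They were picked by their fall to P7, and both changes share the P0 libraries, so this agreement is partly built in. In all 28 genes were called lower at either time and 9 at both.

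ENSOCUG00000013068 had 62.3, 118 and 94.6 CPM at P0 and 3.23, 5.24 and 6.62 CPM at P3. In the same run F28 animals 2 and 9 had 121 and 315 CPM, above every P0 library, and this step was not tested. The P7 libraries of run 2 had 4.45 and 6.72 CPM and that of run 3 had 2.44 CPM. The 2 T35 libraries of run 2 had 0.13 and 11.6 CPM, on both sides of the P7 values. It fell by 4.20 ± 0.70 from P0 to P3 (edgeR adjusted p = 0.00442). ENSOCUG00000028083 had 7.69, 17.3 and 10.5 CPM at P0 and 0.56, 0.13 and 0 CPM at P3, a fall of 5.63 ± 0.82 (edgeR adjusted p = 0.00209) that rests on 5 counts in the 3 P3 libraries. At P7 it had 0.86 and 0.65 CPM in run 2. From P0 to P7 both genes were called with all animals, and neither was without P7 animal 3 or without P7 animal 4 (edgeR adjusted p = 0.0698 to 0.0972).

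Genes called after term birth and after preterm birth overlapped in part. Of the 26 called lower from F29 to T35 and the 28 called lower at P3 or P7, 13 were shared, which is 13 of the 26 and 46.4% of the 28. Of the 26, 7 were among the 16 called at P3, which is 26.9% of the term list and 43.8% of the P3 list. The 26 term genes had a median change of -0.71 from P0 to P3, with 24 of them below 0, and the 123 others tested had -0.31, with 94 below 0. In turn the 16 genes called at P3 had a median of -1.41 from F29 to T35, all below 0. Across the genes tested in both the change from F29 to T35 and that from P0 to P3 had a Spearman correlation of 0.39 (Pearson 0.72, which rests on a few genes with very large changes). Genes are not independent replicates, but the 2 changes share no library. A total of 109 genes was called lower in neither setting. Over all genes, 50.2% of the changes from P0 to P3 and 48.6% of those from F29 to T35 were below 0. No overlap or correlation over all genes is given beside these values. The upper 75 ranks, where a larger fall after term birth is built in, held 21 of the 26 term calls and 12 of the 16 P3 calls. The shared calls are therefore a description, and whether they exceed those of other genes was not tested.

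**Figure D3:**
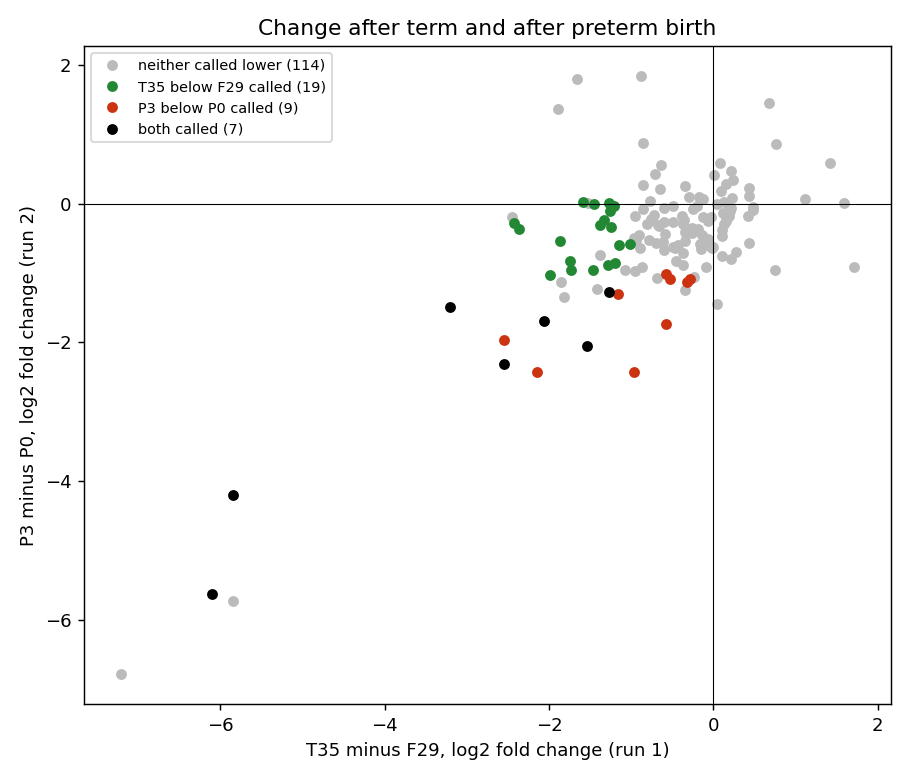
Log2 fold change from F29 to T35 in run 1 (horizontal axis) against that from P0 to P3 in run 2 (vertical axis) for the genes tested in both; each point is a gene, coloured by which fall was called. The 7 genes called in both reach to -6.10 and -5.63, and 9 genes were called at P3 but not at T35.

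Whether the fall came earlier after preterm birth was examined in 3 ways. At the same age from conception, P3 and T31 shared no run and were compared in a joint fit of 18 libraries with the run in the model, in which the runs were tied by 1 T35 library of run 1 and 1 P7 library of run 3. The median difference between P3 and T31 was -0.22 against -0.03 over all genes, and 98 of the 150 lay below 0. The direction of this median was not stable: it was 0.06 in a limma-voom fit of all libraries with the animal as a random block, -0.10 with the F28 libraries, -0.05 without T31 animal 18, -0.13 without T31 animal 15, -0.08 without T35 animal 1 and -0.48 without P7 animal 1. With edgeR 0 genes were called lower (background 0%) and 0 higher (background 0.0347%), 18 were lower and 4 higher at an unadjusted p under 0.05 (3.49% and 4% of all genes were), and DESeq2 called 4 lower (background 0.104%). The median standard error was 0.50 on the log2 scale, so that a 2-fold difference of a single gene was within about 2 standard errors. For ENSOCUG00000013068 the difference was -6.37 ± 1.51 (edgeR adjusted p = 0.193, and 0.00637 with DESeq2) and for ENSOCUG00000028083 -7.42 ± 1.78 (edgeR adjusted p = 0.203, and 0.00164 with DESeq2). Over the alternatives the adjusted p ranged from 0.00113 to 0.679 for the first and from 0.00164 to 0.692 for the second, and without T35 animal 1 the differences were -6.72 and -8.08. All 3 P3 libraries had at most 6.62 CPM of the first, where the 6 T31 libraries of other runs had 38.1 to 824 CPM.

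Secondly, the change over the last days of the window was compared, each within its run. The change from P0 to P3 was more negative than that from F29 to T31 for 103 of the 150 genes, with a median difference of -0.25 against -0.05 over all genes. Without T31 animal 15 the median difference was 0.00, and it was -0.16 without P0 animal 3 and -0.13 without P3 animal 3. None passed the test as a larger fall with edgeR (0 called, background 0.0067%), 19 did at an unadjusted p under 0.05 (6.44% of all genes did), and DESeq2 called 1 (background 0.221%). The 2 spans differ in length, 3 days against 2. For the 16 genes called at P3 the median change from F29 to T31 was -0.35, and 14 of them were below 0.

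Thirdly, at a similar time after delivery, the change from P0 to P3 was set against that from T31 to T35. The median difference was -0.10, against -0.03 over all genes. A larger fall after preterm birth was called for 2 genes (background 0.683%), 1 of them rank 80, and 1 gene, rank 11, had a smaller one (background 0.181%). The count of 2 was 9 without T31 animal 15 (background 1.28%), 0 without P0 animal 1, P0 animal 4, P3 animal 2 or T35 animal 11 (background 0.302% to 0.927%), 1 without T31 animal 10, T35 animal 1, T35 animal 6, P0 animal 3 or P3 animal 3 (background 0.309% to 0.45%), and 4 with DESeq2 (background 1.02%). The median difference was above 0 without P0 animal 1 (0.04), P0 animal 3 (0.01), P3 animal 3 (0.04) or T35 animal 11 (0.04). Rank 11 had 43.6, 63.5 and 59.6 CPM at P0 and 44.8, 53.3 and 33.6 CPM at P3, which overlap, while its T35 libraries were below every T31 library. In run 3 it had 136, 81.6 and 89.1 CPM at T31 against 57.8 and 81.3 CPM at F28. Its group means in run 1 were 4.76 at T31 and 4.37 at F28 on the log2(CPM + 1) scale. The term change of rank 11 thus started from a level at birth above that of day 28. The difference of its changes was 2.09 ± 0.38 (edgeR adjusted p = 0.00682). Rank 80 had 159, 152 and 145 CPM at P0 and 64.2, 42.5 and 34.4 CPM at P3. In run 1 its group mean was highest at F25, with 376, 335 and 364 CPM, and it had 130, 130 and 205 CPM at F29. Levels of rank 80 were thus also lower late in intact gestation, though neither the step to F27 nor that to F29 was called. Its change from T31 to T35 was -0.32 in run 1 and 1.01 in run 3, the latter called higher, with T31 libraries at 52.8, 19.6 and 25.4 CPM there.

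By day 35 from conception the preterm and term levels could not be separated. In run 2 the 2 P7 libraries had mean levels of 4.81 and 4.64 and the 2 T35 libraries 4.57 and 4.69, which overlap. The median difference was -0.01 and the median standard error 0.31, with 0 genes called lower (background 0.058%) and 0 higher (background 0.435%) by edgeR. At an unadjusted p under 0.05, 10 genes were lower and 10 higher (5.61% and 6.1% of all genes were), and DESeq2 called 1 higher (background 0.928%). Without P7 animal 3 or without P7 animal 4, 1 gene was called lower (background 0.0512% and 0.0293%).

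The 1 gene called higher at P3 and the 1 called higher at P7 were below the share called over all genes at either time, and are given here as single cases. ENSOCUG00000010225 (rank 58) had 8.23, 12.1 and 6.92 CPM at P0 and 28.8, 29.0 and 18.3 CPM at P3, with no overlap, and rose by 1.45 ± 0.30 (edgeR adjusted p = 0.0151). The call was lost without P0 animal 1, P0 animal 4 or P3 animal 2, with edgeR adjusted p = 0.0588, 0.0566 and 0.0625. At P7 it had 14.8 and 10.3 CPM, and the T35 libraries of the run had 18.2 and 15.04 CPM. At F28 in that run animal 9 had 23.3 CPM against 11.8 CPM in animal 2. ENSOCUG00000014572, near the lower edge of the ranking, had 12.01, 10.1 and 5.67 CPM at P0 and 94.6 and 28.8 CPM at P7, and rose by 2.65 ± 0.64 (edgeR adjusted p = 0.0249). The call was lost without P0 animal 1, 3 or 4 (edgeR adjusted p = 0.0518 to 0.0784) or without P7 animal 3, the higher one, where the change was 1.61 (adjusted p = 0.262). After term birth it did not rise: its change from F29 to T35 was -1.89 (edgeR adjusted p = 0.0913), with 13.7, 32.4 and 31.6 CPM at F29 and 5.83, 9.28 and 4.56 CPM at T35. The difference between P7 and T35 was 3.00 ± 0.75 (edgeR adjusted p = 0.125, and 0.0341 with DESeq2).

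**Figure D4:**
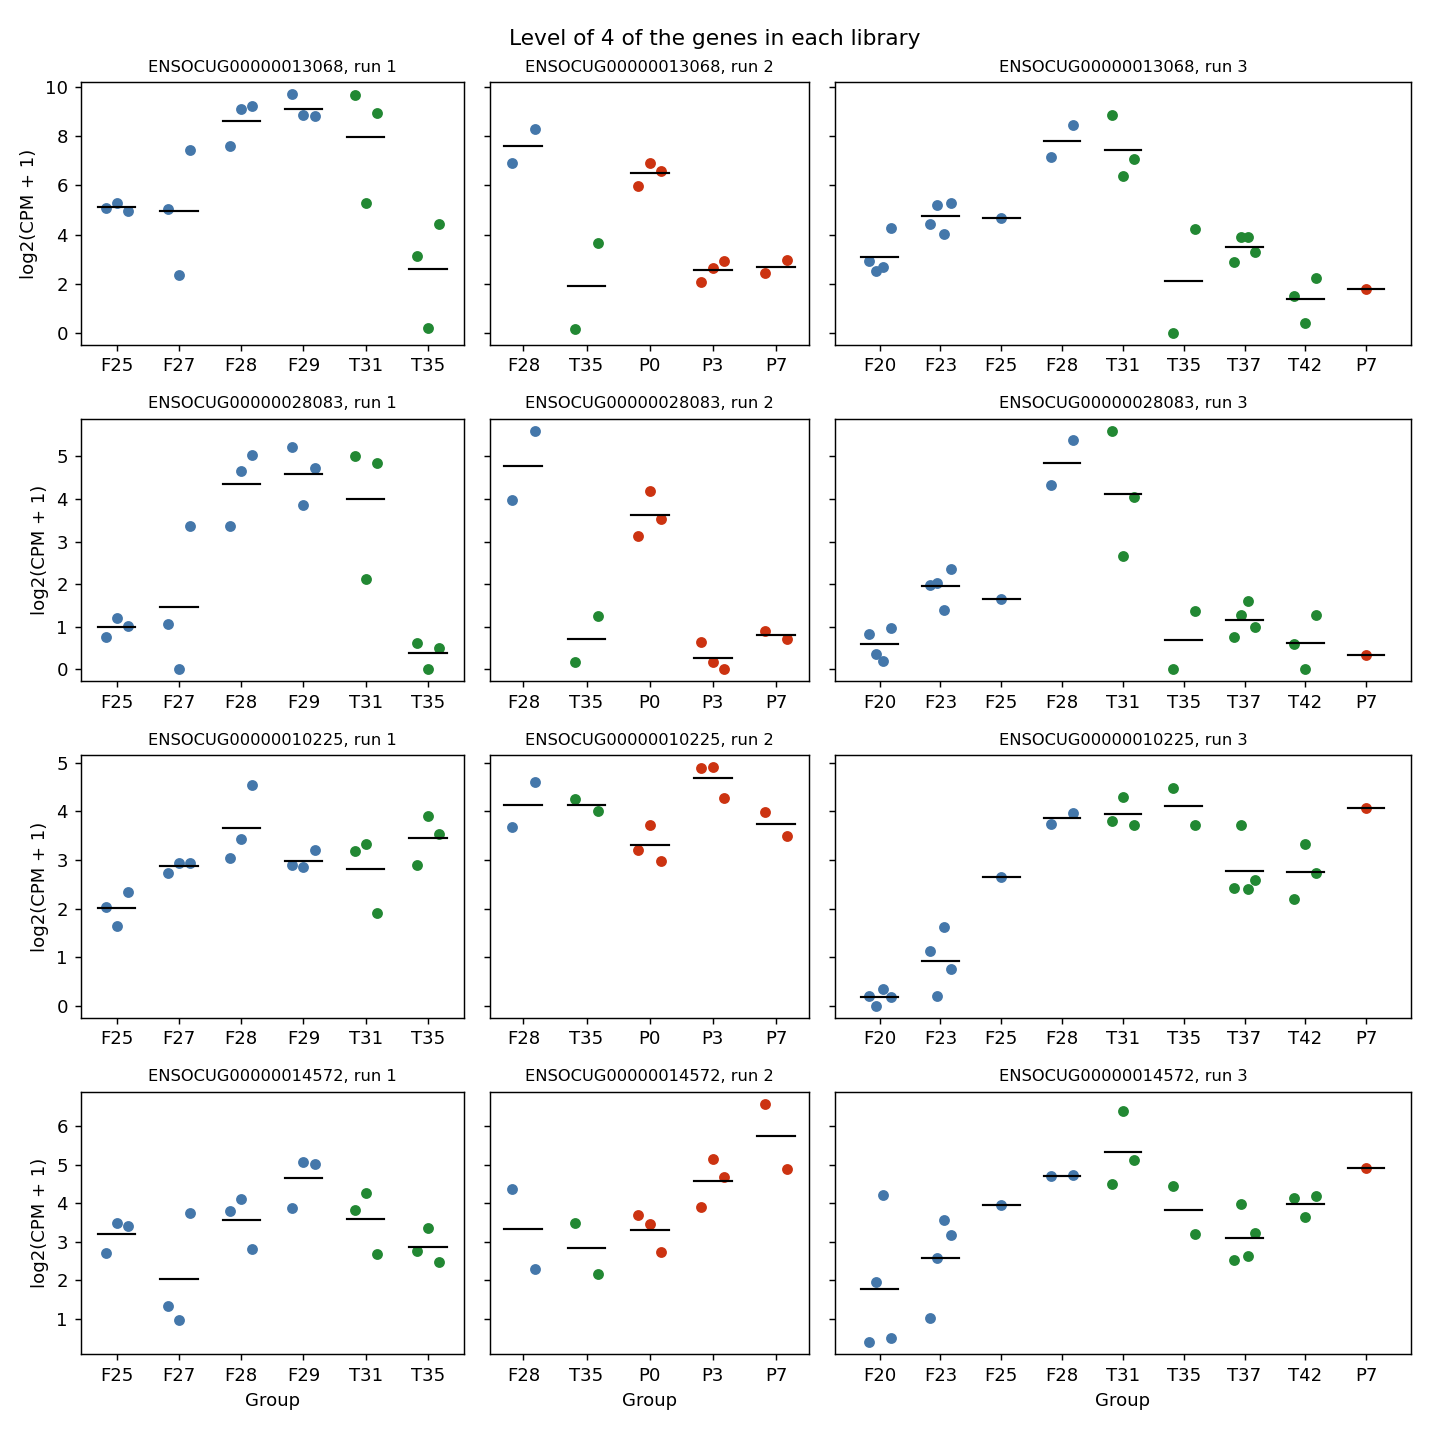
Level as log2(CPM + 1) of 4 of the genes in each library by group and run; points are libraries (blue fetal, green term-born, red preterm) and bars are group means. The genes of ranks 1 and 2 are lower in every T35 library than in every T31 library of its run and lower at P3 and P7 than at P0, while the lower 2 genes are higher at P3 or P7 than at P0.

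Some of the genes varied widely between animals of the same group. The largest range within a group exceeded 3 on the log2 scale for 24 genes and 5 for 7 genes, with a median over all 150 of 1.57. The gene of rank 23 had 2 separate levels: at least 1193 CPM in 25 libraries and at most 66.8 CPM in the other 29, with nothing between. It was high in 22 animals and low in 23, and each animal sequenced more than once was at the same level every time. In run 3 both F28 animals and all 3 T31 animals were high, at 7538, 7494, 5531, 8825 and 5140 CPM, as were 1 of 4 F20, 3 of 4 F23, 3 of 4 T37 and 1 of 3 T42 animals. F28 animal 9 was low in both of its libraries, at 4 and 21 CPM. In run 1 the T31 animals were also high, at 1193, 1591 and 1238 CPM. The T35 animals were low there, at 5.69, 4.16 and 2.21 CPM, and in their other libraries. All P3 animals were low, at 24.2, 18.3 and 22.3 CPM. For this gene the level of the animal and the group thus cannot be told apart when T31 is compared with T35 or P3. The gene of rank 18 had more than 10 counts in only 8 libraries, 1 of them an F28 library of run 3 with 1231 counts, and was the single gene not tested in run 2. Both were called in 0 of the comparisons, and leaving both out moved no library's mean level by more than 0.09. The gene of rank 55, which was not left out, had group means that moved like those of rank 23. They were 1.44 and 3.86 at T31 and 0.0 and 0.18 at T35 in runs 1 and 3 on the log2(CPM + 1) scale. Its fitted changes of -6.51 from T31 to T35 in run 1 and 8.12 for P7 against T35 were not called.

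**Figure D5:**
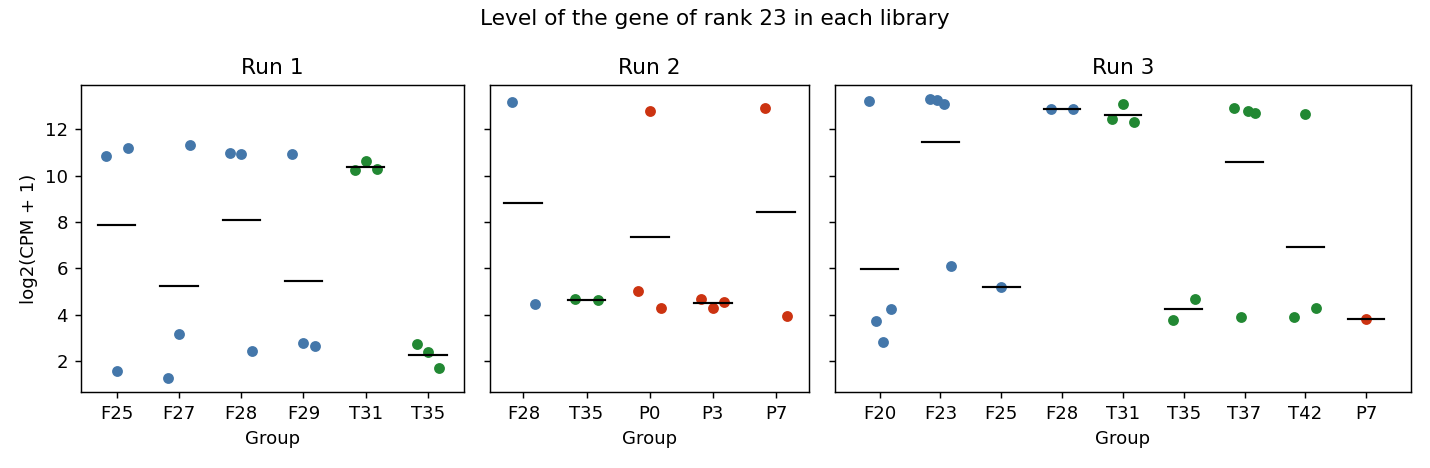
Level as log2(CPM + 1) of the gene of rank 23 in each library by group and run; points are libraries (blue fetal, green term-born, red preterm) and bars are group means. Many groups hold libraries at both a high and a low level, and the 25 high libraries all have at least 1193 CPM.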

How the data were processed

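The authors aligned the reads with STAR to OryCun2.0 and obtained a count for each Ensembl gene with HTSeq, and the deposited table holds these raw counts for 54 libraries. Versions are not given in the sources used here. All 54 columns were mapped to samples by their labels, and 0 were left unused. Counts were tested with edgeR 4.0.16 (TMM, quasi-likelihood, genes of at least 0.5 CPM in at least 3 fitted libraries, Benjamini-Hochberg) in R 4.3.3, separately for 18 libraries of run 1, 12 of run 2 and 24 of run 3. P3 and T31 were compared in 18 libraries of 3 runs with the run as a term and without F28, and differences of changes in the 23 libraries of F25, F27, F29, T31 and T35 (run 1) and P0, P3 and P7 (run 2). DESeq2 1.42.0, limma-voom (limma 3.58.1), other scaling, no filter and leaving out each animal were alternatives. The fits were tested on simulated data. Genes with a symbol were to be named by rank and size of change; none had one. The genes, lists and tests were chosen with earlier results of these data known. The p-values measure the spread between animals. No 2 libraries were identical, and the highest correlation between any 2 was 0.990.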

Additional observations from a re-analysis of the deposited data

Results flagged for a closer look

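The 3 genes whose change from P0 to P3 differed from their change from T31 to T35 by the test of that difference were those of rank 11 (2.09, a smaller fall after preterm birth), rank 80 (-1.46) and a gene of lower rank (-1.04, both a larger fall). The last of these had 144, 122 and 133 CPM at P0 and 89.8, 81.6 and 103 CPM at P3, while its term change was 0.42. For ENSOCUG00000010225 in the T37 group of run 3, 1 of the 4 libraries (12.1 CPM) stood apart from the other 3 at 4.38, 4.32 and 5.002 CPM, with a gap of 0.866 of the range on the log2(CPM + 1) scale. This was 1 of 15 sets of values examined in this way, and chance sets apart about 1 set in 20. T37 of run 3 entered the choice of the genes, so the gap is given as a description only.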

How the results depend on the processing

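Counts of genes called moved by more than 1.5 times under some settings, and the share called over all genes, in parentheses, moved too. DESeq2 gave 6 genes higher at F27 than F25 (0.466%), 1 lower at T31 than F29 (0.384%), 4 lower at P3 than T31 (0.104%), 1 higher at P7 than T35 (0.928%), 1 with a larger fall from P0 to P3 than from F29 to T31 (0.221%) and 4 than from T31 to T35 (1.02%). Without a filter 3 were higher at F27 than F25 (0.169%), 6 lower at P3 than T31 (0.0565%), 6 higher and 3 lower at P7 than T35 (0.919% and 0.298%), 25 lower at P3 than P0 (0.85%) and 2 with a larger fall than from F29 to T31 (0.0965%). By the adjusted p alone 30 genes were lower at P3 (2.4%) and 40 at P7 (3.32%) than at P0. With limma-voom 7 were lower at T35 than T31 in run 1 (0.205%), and with RLE size factors 1 had a larger fall than from T31 to T35 (0.623%). Ranks 1 to 75 alone held 21 (T35 under F29), 10 and 12 (T35 under T31, runs 1 and 3), 16 (P7 under P0) and 0 (larger fall than from T31 to T35), with the shares over all genes as in the full list. Leaving out an animal gave 0 to 2 genes higher at F27 than F25 (0.00688% to 0.207%), 0 to 7 lower at T31 than F29 (0% to 1.01%), 3 to 13 (0.0757% to 0.99%) and 3 to 20 (0.866% to 2.71%) at T35 than T31 in runs 1 and 3, 17 to 26 at T35 than F29 (0.654% to 1.62%), 9 to 25 at P7 than P0 (0.673% to 1.13%), 13 to 17 at P3 than P0 (0.358% to 0.592%), 0 to 1 at P7 than T35 (0.00731% to 0.0512%), 0 to 1 with a larger fall than from F29 to T31 (0% to 0.181%) and 0 to 9 than from T31 to T35 (0.302% to 1.28%). The cause was not tested. No call of the 4 genes given by identifier changed direction.

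Preterm animals share numbers across groups, and the deviations of same-numbered animals from their group means correlated between -0.144 and 0.155. With means of 2 or 3 libraries, these values cannot decide whether the numbers pair the animals. With the replicate block the rise of ENSOCUG00000010225 from P0 to P3 was 1.18 (edgeR adjusted p = 0.104). With the block 14 genes were lower at P3 (0.382%) and 16 at P7 (0.681%) than at P0, against 15 (0.786%) and 17 (1%) in the same 8 libraries without it, a setting chosen after seeing the data, as were the joint fits without T35 animal 1 or P7 animal 1. TMM scaling in the rule kept 136 of the 150 genes. A call required a change of more than 2-fold, so smaller changes were not called whatever the number of animals. With 2 or 3 animals a group, larger changes could also go uncalled.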
